A study of Mus musculus with 6 samples.

Results

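The set described here holds 8 genes of the suckling-to-weaning transition and of the urea cycle, and single values are given for Prdm1, Fcgrt, Cym, Ass1, Cps1 and Otc. The 8 genes were taken by symbol from the 19616 genes of the deposited table, and all 8 were found. The set was chosen by control against Hdac1/2-deleted values of these same libraries, so the differences of these 8 genes are given as a description, with no test. Tests are read only for other genes of the same pathways, listed by what they do, although earlier results of these data were known when the lists were written.

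RNA was sequenced from jejunal intestinal epithelial cells (IEC), enriched by EDTA, of 3 wild-type control mice (C1, C3 and C3-3) and 3 villin-Cre Hdac1-/-; Hdac2-/- mice (H1, H5 and H9), all aged 3 months, with 1 poly(A) library per mouse. The deleted mice carried floxed Hdac1 and Hdac2 alleles and a Cre transgene under the villin promoter, which is active in intestinal epithelium, and their strain background was C57BL/6J X 129SV X CD1. The controls are labelled wild-type, and whether they carried Cre or floxed alleles is not given in the sources used here. Total counts on genes were 65902344, 62311942 and 58017009 in C1, C3 and C3-3, and 65230566, 36111035 and 60418894 in H1, H5 and H9. Levels are given in CPM, counts per 1e6 of the library total times its TMM factor, and as mean ± SD over n = 3 mice. The floor of detection was set at 3 counts, which were worth 0.0405 to 0.0790 CPM and cover counting error only. Log2 fold changes are those of labelled Hdac1/2-deleted over control, with their standard errors (SE). Genes whose levels differed by 2-fold or more were called increased or decreased where the Benjamini-Hochberg adjusted p of the quasi-likelihood test of edgeR, taken over the 15618 genes tested, did not exceed 0.05. The p-values measure only the spread between these mice.

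Hdac1 stood at 39.1, 34.5 and 48.9 CPM in C1, C3 and C3-3 and at 3.97, 2.53 and 4.81 CPM in H1, H5 and H9. Its log2 fold change was -3.43 (SE 0.26, edgeR adjusted p = 2.9e-05), and it was lower in 3 of 3 libraries. Hdac2 stood at 32.9, 23.6 and 26.5 CPM in the controls and at 26.6, 25.4 and 21.4 CPM in H1, H5 and H9, and the groups overlapped. Its log2 fold change was -0.18 (SE 0.17, edgeR adjusted p = 0.44) and turned to 0.0069 with library totals as the only scaling. The transcript counts therefore followed the label for Hdac1 and not for Hdac2. The exons removed from Hdac2 are not given in the sources used here, and counts over a whole gene can include exons outside a deletion. The groups are for this reason called control libraries and libraries labelled Hdac1/2-deleted, and every direction below rests on these labels.

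Some libraries stood apart. In a check on transcripts of the sex chromosomes, counts on Y-linked genes exceeded those on Xist in 1 control library. They did so in 0 libraries labelled Hdac1/2-deleted, and the sex of the mice is not given in the sources used here. Otc, Sms and Sat1 lie on chromosome X, and the part of sex in their levels was not tested. C1 lay at 62.07 on the second principal component, where the other 5 libraries lay between -30.81 and 14.74. H5 was the shallowest library. The epithelial identity of the samples was checked with 10 enterocyte and epithelial markers, all of which had counts in every library, with Epcam at 1664 ± 166 CPM in control and 1081 ± 124 CPM in labelled Hdac1/2-deleted libraries.

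At weaning the small intestine of rodents changes from the digestion of milk to that of solid food. Enterocytes of suckling animals take up milk proteins and maternal immunoglobulin by endocytosis, degrade protein in large lysosomes, and hold a high activity of lactase, while sucrase-isomaltase and trehalase come up later. The urea cycle, best known from liver, also runs in part in enterocytes, where carbamoyl phosphate synthetase and ornithine transcarbamylase make citrulline in mitochondria, and argininosuccinate synthetase and lyase can turn it into arginine.

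Of the 8 genes, 1 was called increased and 3 were called decreased in the libraries labelled Hdac1/2-deleted, where 12.4% and 12.7% of all tested genes were called. The groups did not overlap for 6 of the 8, and for 53.2% of all tested genes. All 8 passed the filter on low counts. As the genes were selected on this contrast, nothing is read from these shares. Cym and Ass1 differed most between the groups, in opposite directions, and Cps1 and Fcgrt overlapped.

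**Figure D1:**
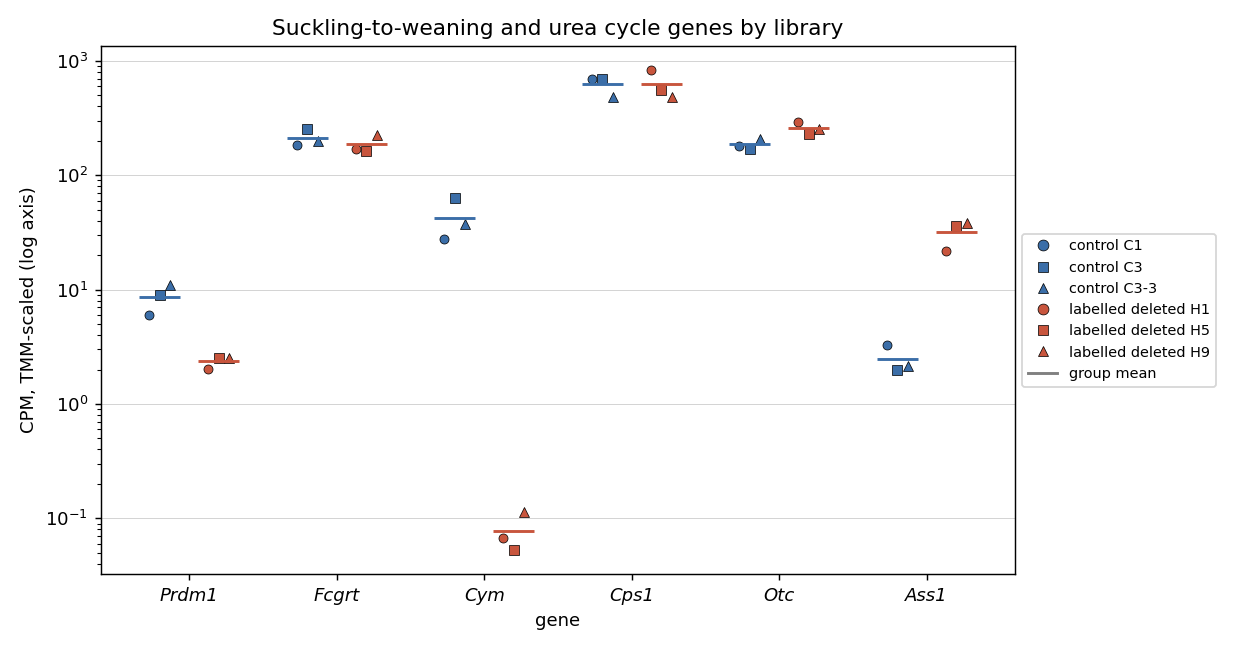
CPM of 6 of the 8 genes in each of the 6 libraries on a log axis, with points for single libraries (1 per mouse) and bars for the mean of each group of 3. Cym is near the floor in H1, H5 and H9, at 0.0527 to 0.114 CPM, and Ass1 lies at 21.7 to 38.6 CPM there against 1.96 to 3.26 CPM in control.

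The region just before the start of a gene is shown for the regulator of the set, Prdm1, and for the 2 genes that differed most, Cym and Ass1. RefSeq promoter entries on GRCm38.p6, covering 250 bases before the start, were matched for 5 of the 8 genes, and only bases outside annotated exons are printed. The Prdm1 stretch is chr10:44458749-44458998 on the minus strand and lies within the annotated gene, in front of an inner start. The Cym stretch is chr3:107221733-107221982 on the minus strand, and the Ass1 stretch is chr2:31470020-31470206 on the plus strand. Sequences run 5′ to 3′ in lower case, with capitals for each CG dinucleotide and, in Cym, also for TATAAA and for GACTTTG.
Prdm1: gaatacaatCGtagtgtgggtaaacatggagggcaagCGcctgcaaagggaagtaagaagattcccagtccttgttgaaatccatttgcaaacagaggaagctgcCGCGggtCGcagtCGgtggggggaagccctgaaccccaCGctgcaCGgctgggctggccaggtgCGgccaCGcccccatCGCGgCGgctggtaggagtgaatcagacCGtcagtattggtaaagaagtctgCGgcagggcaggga
Cym: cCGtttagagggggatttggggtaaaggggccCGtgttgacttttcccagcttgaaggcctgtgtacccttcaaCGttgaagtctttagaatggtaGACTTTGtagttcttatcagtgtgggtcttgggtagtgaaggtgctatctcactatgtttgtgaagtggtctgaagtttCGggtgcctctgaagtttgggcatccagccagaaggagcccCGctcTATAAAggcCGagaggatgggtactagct
Ass1: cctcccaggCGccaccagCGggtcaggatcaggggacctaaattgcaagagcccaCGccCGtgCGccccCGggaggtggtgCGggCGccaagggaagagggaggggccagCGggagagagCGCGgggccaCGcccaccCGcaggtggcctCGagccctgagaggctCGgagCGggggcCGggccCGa

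In the whole 250 bases, the Ass1 window held 23 CG dinucleotides and 75.6% G and C, the Prdm1 window 15 and 59.2%, and the Cym window 6 and 50.0%. The median over 32851 promoter windows of this length was 6 CG dinucleotides and 52.4% G and C. Of the unprinted matched windows, that of Fcgrt held 5 and 53.2%, and that of Otc 1 and 43.6%. The motifs searched on both strands were the TATA box (TATAAA), the GC box (GGGCGG), the core of the PRDM1 site (GAAAGTG) and the HNF4A core (CAAAGTC). The TATA box, found in 12.4% of all windows, occurred in Cym from 29 to 24 bases before the start. CAAAGTC, found in 3.84% of windows, also occurred in Cym, from 154 to 148 bases before the start on the opposite strand, where it reads GACTTTG. The GC box, found in 32.7% of windows, occurred in Ass1 from 63 to 58 bases before the RefSeq start, in bases that GENCODE places in an exon and that are not printed. GAAAGTG, found in 4.01% of windows, was in none of the 5 windows. These matches describe letters only.

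Prdm1 encodes the transcriptional repressor BLIMP1, which is present in the epithelium of suckling mice and is lost from it around weaning. The gene (ENSMUSG00000038151) lies on chromosome 10 from 44437177 to 44528501 of GRCm38. It stood at 6.01, 8.93 and 10.97 CPM in C1, C3 and C3-3, and at 2.02, 2.53 and 2.50 CPM in H1, H5 and H9. Every library labelled Hdac1/2-deleted was below every control, and the controls differed more among themselves, by 1.83-fold from lowest to highest against 1.25-fold. The means were 8.64 ± 2.49 and 2.35 ± 0.283 CPM, which is -1.88 in log2 (SE 0.28).

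Among 6 other regulators listed for weaning, Lin28b is not among the genes analysed here and 5 were tested. Of these 5, 0 were called increased and 2 were called decreased. The median of their log2 fold changes was -0.59, where the median over all tested genes was -0.0081. Without adjustment, 0 of the 5 had p under 0.05 and were higher, and the DESeq2 Wald test also called 0 increased and 2 decreased. Of the decreased genes, Nr3c1 encodes the glucocorticoid receptor, and glucocorticoids bring forward the maturation of the suckling intestine. Its level went from 113 ± 4.16 down to 50.5 ± 7.81 CPM, by -1.17 in log2 (SE 0.15, edgeR adjusted p = 3.9e-04), and was lower in 3 of 3 libraries. With scaling by library totals only, the value of Nr3c1 was -0.98, short of 2-fold. Maf stood at 193 ± 37.4 and 129 ± 12.9 CPM (log2 fold change -0.59, adjusted p = 0.021, edgeR), lower in 3 of 3 libraries by less than 2-fold.

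Fcgrt encodes the heavy chain of the neonatal Fc receptor, which carries immunoglobulin G across enterocytes in suckling rodents and pairs with beta-2-microglobulin, the product of B2m. Fcgrt (ENSMUSG00000003420) lies on chromosome 7 from 45092990 to 45103851. It stood at 185, 253 and 200.4 CPM in the controls and at 170.0, 164 and 226 CPM in H1, H5 and H9. The groups overlapped, with the highest level in C3 and the lowest in H5. The means were 213 ± 35.2 and 187 ± 33.98 CPM, a difference smaller than the spread within either group, with a log2 fold change of -0.19 (SE 0.18) that came to 0.0018 with scaling by library totals only.

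The partner chain differed. B2m stood at 2110.1, 2817 and 2575 CPM in the controls and at 715, 888 and 845 CPM in H1, H5 and H9, with no overlap. Its log2 fold change was -1.62 (SE 0.19, edgeR adjusted p = 2.3e-04), lower in 3 of 3 libraries. The list of immunoglobulin receptors with B2m held 6 tested genes, of which 0 were called increased and 2 decreased. The median of their log2 fold changes was -0.42. Without adjustment, 0 of these had p under 0.05 and were higher, and DESeq2 called 0 increased and 3 decreased. The other decreased gene was Pigr, the receptor that carries polymeric immunoglobulin A into the lumen, which fell from 8383 ± 2157 to 3059.7 ± 262 CPM (log2 fold change -1.45, SE 0.23, edgeR adjusted p = 0.0013, lower in 3 of 3 libraries). The Fc gamma receptor genes of this list had means of at most 1.16 CPM in both groups.

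Cym encodes chymosin, an aspartic protease that clots milk in the stomach of young mammals. The gene (ENSMUSG00000046213) lies on chromosome 3 from 107211293 to 107221732. Its counts were 1821, 3486 and 1975 in C1, C3 and C3-3, or 27.5, 62.8 and 37.2 CPM. In H1, H5 and H9 they were 5, 2 and 7, or 0.0675, 0.0527 and 0.114 CPM, with 95% Poisson intervals that run from 0.00638 CPM at the lowest to 0.234 CPM at the highest and cover counting error only. The controls spread over 2.28-fold, with C3 highest, and all lay far above the other group. Over the pooled counts, 7282 against 14, the level was 516 times higher in control, with an exact 95% counting interval of 307 to 945. The fitted log2 fold change was -9.01 (SE 0.46), and the 11 alternatives that could test Cym gave -9.36 to -8.53.

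Other aspartic protease genes went in both directions. Of 8 tested, 5 had a positive log2 fold change, 3 were called increased and 0 decreased. The median of their log2 fold changes was 0.86. Without adjustment, 1 of the 8 had p under 0.05 and was lower, and DESeq2 called 3 increased and 0 decreased. The lower gene with p under 0.05 was Bace2, at 14.7 ± 0.109 and 8.98 ± 1.09 CPM (log2 fold change -0.72, adjusted p = 0.0092, edgeR), lower in 3 of 3 libraries by less than 2-fold. Pga5, a pepsinogen gene, rose from 0.239 ± 0.115 to 2.77 ± 0.189 CPM (log2 fold change 3.52, SE 0.41, edgeR adjusted p = 2.5e-04). Bace1, a beta-secretase gene, rose from 4.07 ± 0.277 to 11.5 ± 1.34 CPM (log2 fold change 1.499, SE 0.20, edgeR adjusted p = 4.7e-04). Both were higher in 3 of 3 libraries. Ren1, the renin gene, was called at an adjusted p of 0.042 (edgeR, log2 fold change 2.73, SE 0.90, higher in 3 of 3 libraries), but H9 stood at 0.374 CPM beside 0.342 CPM in C3. Its adjusted p (edgeR) was 0.051 without C3, 0.091 without C3-3, 0.11 without H1 and 0.12 without H5, within a range of 0.0031 to 0.12 over 11 alternatives, and without C3 its log2 fold change was 3.39. Ctsd, the cathepsin D gene, was the most abundant of the list at 369 ± 64.0 and 698 ± 60.3 CPM, a log2 fold change of 0.92 (adjusted p = 0.0029, edgeR) that was higher in 3 of 3 libraries, short of 2-fold, and passed it without C3 (1.05) and with library totals only (1.11). Exons of Gm49369 on the same strand overlap 34.4% of the Ctsd exon bases, and exons of Rnf214 on the opposite strand 15.4% of those of Bace1. Whether reads were counted by strand is not given in the sources used here.

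The urea cycle genes are taken in the order of their steps. Cps1 (ENSMUSG00000025991, chromosome 1 from 67123026 to 67231259) encodes the enzyme that makes carbamoyl phosphate from ammonia in mitochondria. It stood at 694, 687 and 486 CPM in the controls and at 832, 559 and 485 CPM in H1, H5 and H9. The groups overlapped fully, at means of 622 ± 118 and 625 ± 183 CPM. The log2 fold change of 0.0071 (SE 0.24) ranged from -0.25 without H1 to 0.21 over 12 alternatives.

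Otc (ENSMUSG00000031173) lies on chromosome X from 10252305 to 10321024 and encodes the enzyme that joins carbamoyl phosphate to ornithine to give citrulline. It stood at 179.8, 169.8 and 208 CPM in the controls and at 292, 228 and 255 CPM in H1, H5 and H9. All 3 libraries labelled Hdac1/2-deleted lay above all 3 controls, by a log2 fold change of 0.47 (SE 0.15), less than 2-fold. Over 12 alternatives it ranged from 0.38 without H1 to 0.67 with library totals as the only scaling.

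Ass1 (ENSMUSG00000076441, chromosome 2 from 31470207 to 31520672) encodes the enzyme that joins citrulline and aspartate. Its counts were 216, 109 and 115 in C1, C3 and C3-3, or 3.26, 1.96 and 2.16 CPM. In H1, H5 and H9 they were 1608, 1376 and 2372, or 21.7, 36.2 and 38.6 CPM. The lowest of these, H1, was still well above the highest control, C1. The means were 2.46 ± 0.699 and 32.2 ± 9.13 CPM, 13.1 times higher in the labelled Hdac1/2-deleted group, with a log2 fold change of 3.70 (SE 0.30) and a range of 3.56 to 3.97 over 12 alternatives.

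Levels can be set side by side between genes only per length, here as CPM per kilobase of annotated exon. In control, Oat stood at 576 ± 73.9, Cps1 (112 ± 21.3) and Fcgrt (101 ± 16.7) lay lower and overlapped, and Otc stood at 43.8 ± 4.71. Ass1 (1.02 ± 0.290) lay below Asl (5.99 ± 0.888). In the libraries labelled Hdac1/2-deleted, Cps1 stood at 113 ± 32.9, and Ass1 (13.3 ± 3.78) lay just under Asl (17.9 ± 2.12) without overlap.

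The ratio of Ass1 to Otc on this scale was 0.0319, 0.0203 and 0.0183 in the controls and 0.131, 0.280 and 0.265 in H1, H5 and H9. It is taken within a library, so the scaling between libraries does not enter it.

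**Figure D2:**
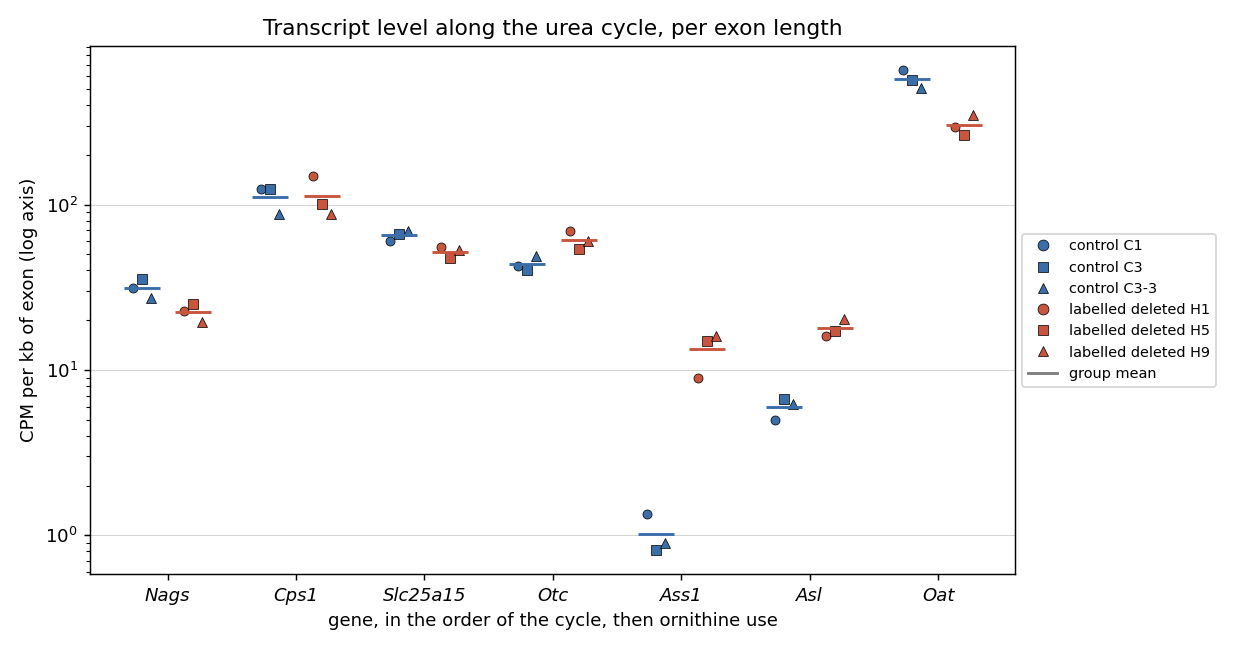
CPM per kilobase of exon for 7 genes of the urea cycle and its substrates in each of the 6 libraries on a log axis, with bars for the mean of each group of 3. The largest gap between the groups is at Ass1 (1.02 against 13.3), and Cps1 overlaps.

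Of 7 listed partners of the cycle 5 were tested, with 2 called increased and 0 decreased. The median of their log2 fold changes was -0.33, which was the same with Car5a set to its lower bound. Without adjustment, 3 of the 5 had p under 0.05 and were lower, and DESeq2 called 2 increased and 0 decreased. Asl, the gene of argininosuccinate lyase, which acts just after the Ass1 product, stood at 24.2, 32.4 and 30.3 CPM in the controls and at 78.0, 83.5 and 97.8 CPM in H1, H5 and H9. It rose in 3 of 3 libraries by a log2 fold change of 1.58 (SE 0.16, edgeR adjusted p = 1.2e-04). Car5a, a mitochondrial carbonic anhydrase gene, had 0 counts in all 3 controls and 104, 66 and 153 counts in H1, H5 and H9. Its mean of 1.88 ± 0.555 CPM was at least 36.1-fold higher than the mean level of 3 counts per control library (adjusted p = 1.4e-04, edgeR, higher in 3 of 3 libraries). Exons of BC048644 on the opposite strand, which stood at 0.0387 ± 0.0212 and 0.0441 ± 0.0547 CPM, overlap 23.4% of its exon bases.

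The remaining tested partners were not called. Nags, whose product makes the activator of carbamoyl phosphate synthetase, stood at 89.4 ± 11.7 and 63.5 ± 8.06 CPM (log2 fold change -0.49, adjusted p = 0.030, edgeR). Slc25a15, the mitochondrial ornithine carrier gene, stood at 368 ± 24.6 and 292 ± 22.9 CPM (log2 fold change -0.33, adjusted p = 0.087, edgeR). Slc25a13, of the carrier that brings aspartate out of mitochondria, stood at 47.7 ± 11.5 and 24.7 ± 4.20 CPM (log2 fold change -0.94, adjusted p = 0.0066, edgeR), and passed 2-fold without C1 (-1.12) and without H1 (-1.08). All 3 were lower in 3 of 3 libraries by less than 2-fold. Slc25a2 and Car5b, with 8 and 7 counts over the controls and 8 and 10 over H1, H5 and H9, were too low to test.

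Genes that make or use arginine, ornithine and polyamines formed the largest list. Of 30 tested, 8 were called increased and 2 decreased, and the list had 0.34 as its median log2 fold change. At an adjusted p of 0.05 or less with no fold limit, edgeR gave 9 higher and 7 lower genes, so the imbalance rests largely on the 2-fold limit. Along the polyamine branch, which starts from ornithine, the decarboxylase gene Odc1 overlapped between the groups and was not called, at 122 ± 13.1 and 147 ± 19.0 CPM (log2 fold change 0.28, adjusted p = 0.17, edgeR). The spermidine synthase gene Srm rose from 7.94 ± 2.19 to 40.6 ± 16.1 CPM (log2 fold change 2.35, SE 0.31, edgeR adjusted p = 6.1e-04), with H5 highest at 58.9 CPM. The polyamine oxidase gene Paox rose from 7.46 ± 1.20 to 30.9 ± 4.09 CPM (log2 fold change 2.05, SE 0.19, edgeR adjusted p = 6.5e-05). Srm and Paox were higher in 3 of 3 libraries.

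Other polyamine genes lay near the 2-fold limit. Sms, of spermine synthase, had a log2 fold change of 1.09 (0.97 without C3-3 and 0.99 without H9). Smox, of spermine oxidase, had 1.11 (0.9993 without H5). Sat1, of the acetyltransferase that starts polyamine breakdown, had -1.01, with -0.92 without C3-3, -0.87 without H5 and -0.99 without H9, and it was also short of 2-fold with library totals only (-0.82), with DESeq2 (-0.9975) and with at least 10 counts in every library (-0.9991). Adjusted p-values (edgeR) were 0.0028, 0.0022 and 0.0021 for Sms, Smox and Sat1, and each gene differed in the same direction in 3 of 3 libraries.

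Among genes that use arginine or its products in other ways, Gamt, Agmat, Nos2 and Ddah2 were called increased, Gatm and Ddah1 overlapped between the groups and were not called, and Nos1 and Nos3 were too low to test. The call of Ddah1 hung on 1 library. Its log2 fold change of 1.09 (edgeR adjusted p = 0.14, groups overlapping) became 1.94 without C3-3, where the adjusted p (edgeR) was 0.013, in a range of 0.013 to 0.30 over 12 alternatives. Gamt, of the last step of creatine synthesis, stood at 2.22, 2.07 and 1.99 CPM in the controls and at 30.3, 48.1 and 52.9 CPM in H1, H5 and H9, a log2 fold change of 4.38 (SE 0.24, edgeR adjusted p = 6.3e-06). Agmat, of agmatinase, stood at 18.9, 20.8 and 21.5 CPM against 86.5, 89.2 and 91.1 CPM, a log2 fold change of 2.13 (SE 0.13, edgeR adjusted p = 8.5e-06). Both were higher in 3 of 3 libraries. The controls of both genes lay close together, and the groups lay far apart. Nos2, of inducible nitric oxide synthase, rose from 5.87 ± 3.22 to 41.2 ± 21.2 CPM (log2 fold change 2.81, SE 0.52, edgeR adjusted p = 0.0055, higher in 3 of 3 libraries). Ddah2, of an enzyme that breaks down methylated arginine, rose from 1.28 ± 0.890 to 8.34 ± 1.39 CPM (log2 fold change 2.71, SE 0.45, edgeR adjusted p = 0.0017, higher in 3 of 3 libraries), and its log2 fold change was 3.45 without C3.

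On the side of proline and glutamate, Oat, of ornithine aminotransferase, was the most abundant gene of the list at 1360.3 ± 174 and 712 ± 103 CPM. Its log2 fold change was -0.93 (SE 0.18, edgeR adjusted p = 0.0033), lower in 3 of 3 libraries but short of 2-fold, and passed the limit without C3-3 (-1.01) and without H9 (-1.05). Pycr1, of a proline synthesis enzyme, fell from 1.47 ± 0.232 to 0.555 ± 0.181 CPM (log2 fold change -1.42, SE 0.37, edgeR adjusted p = 0.013), lower in 3 of 3 libraries. Its adjusted p (edgeR) was 0.052 both without H1 and without H9, in a range of 0.0017 to 0.052 over 12 alternatives.

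The list of uptake and lysosomal genes of suckling enterocytes held 18 tested genes, of which 6 were called increased and 3 decreased, at a median log2 fold change of 0.55. Mamdc4 encodes endotubin, a membrane protein of the apical endosomes of suckling enterocytes. It stood at 0.559, 0.918 and 1.41 CPM in C1, C3 and C3-3 and at 443, 339 and 425 CPM in H1, H5 and H9. This was a log2 fold change of 8.72 (SE 0.37, edgeR adjusted p = 2.8e-06, higher in 3 of 3 libraries), the furthest from 0 among the genes of this list with more than 10 control counts. Exons of Phpt1 on the same strand overlap 9.03% of its exon bases, and Phpt1 stood at 6.63 ± 0.306 and 40.3 ± 1.40 CPM, so shared reads could enter either value.

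The endocytic receptor genes went in opposite directions. Lrp2, of megalin, had 8, 1 and 0 counts in C1, C3 and C3-3 and 889, 1458 and 1989 in H1, H5 and H9, a pooled ratio of 485 with an exact 95% counting interval of 255 to 1062 (adjusted p = 2.7e-04, edgeR, higher in 3 of 3 libraries). Nearly all of its control counts came from C1, and without C1 the fitted log2 fold change moved from 9.03 to 11.24. Cubn, of cubilin, which works with megalin and with the Amn product, fell from 889.5, 585 and 859 CPM in the controls to 23.9, 42.9 and 95.5 CPM in H1, H5 and H9. Its log2 fold change was -3.84 (SE 0.54, edgeR adjusted p = 0.0016, lower in 3 of 3 libraries) and was -4.54 without H9, the highest library of its group. Amn stood at 213 ± 27.0 and 364 ± 106 CPM and was not called (log2 fold change 0.77, adjusted p = 0.024, edgeR, higher in 3 of 3 libraries), and passed 2-fold without H1 (1.0007).

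Among lysosomal enzymes, the beta-galactosidase gene Glb1 rose from 33.8 ± 2.83 to 248 ± 80.0 CPM (log2 fold change 2.88, SE 0.24, edgeR adjusted p = 5.1e-05). Ctsl, of cathepsin L, rose from 27.5 ± 11.4 to 129 ± 16.7 CPM (log2 fold change 2.23, SE 0.28, edgeR adjusted p = 4.8e-04). The sialidase gene Neu1 (1.81) and the beta-glucuronidase gene Gusb (1.72) were also called increased, with log2 fold changes in parentheses. All 4 were higher in 3 of 3 libraries. Exons of Gm47123 on the opposite strand overlap 26.9% of the Ctsl exon bases, and those of Tmppe on the same strand 5.49% of the Glb1 exon bases.

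Lct encodes lactase, the enzyme of milk sugar digestion. It stood at 5067, 8820.1 and 6046 CPM in C1, C3 and C3-3, and at 1225, 1572 and 2231 CPM in H1, H5 and H9. Every library labelled Hdac1/2-deleted was below every control, by a log2 fold change of -1.99 (SE 0.30, edgeR adjusted p = 8.7e-04, 3 of 3 libraries). Thus within the list Mamdc4, Lrp2 and 4 lysosomal enzyme genes rose while Lct and Cubn fell.

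**Figure D3:**
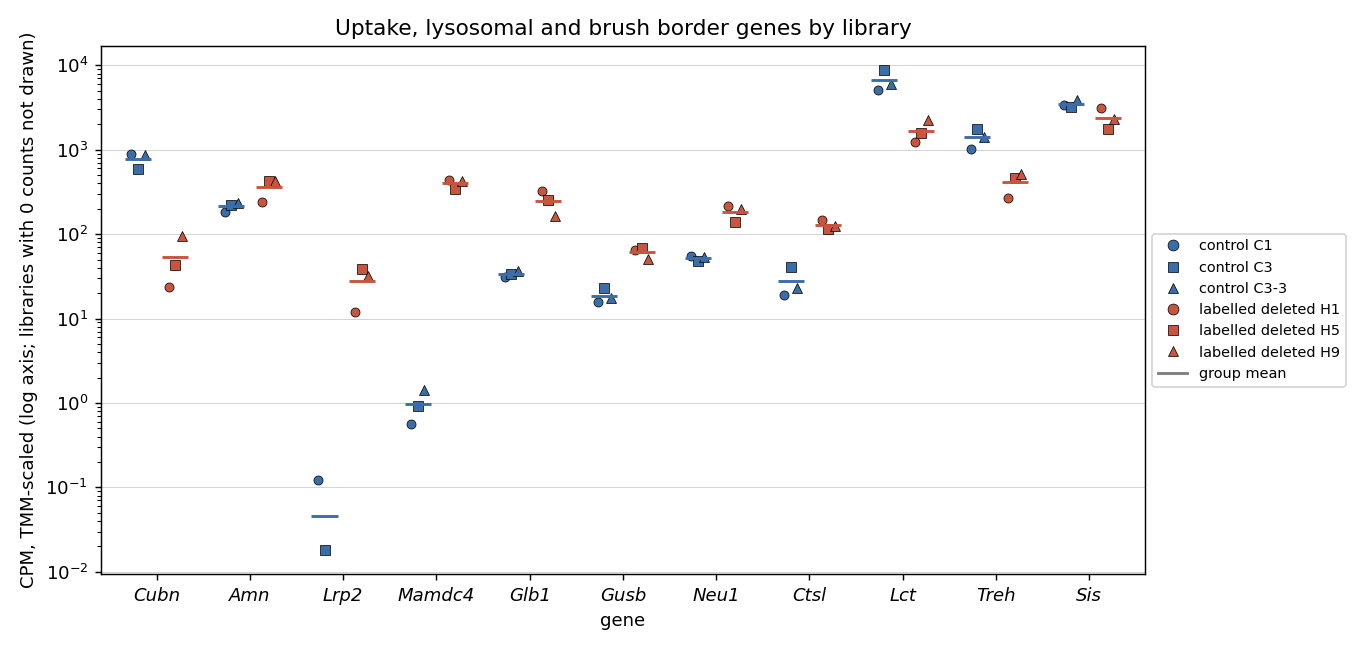
CPM of genes of the uptake and lysosomal list and of the brush border list in each of the 6 libraries on a log axis, with bars for group means; a library with 0 counts (Lrp2 in C3-3) has no point. Mamdc4 lies at 0.559 to 1.41 CPM in control and at 339 to 443 CPM in the libraries labelled Hdac1/2-deleted, and Cubn and Lct lie lower in the latter.

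Of 5 tested brush border genes of the adult intestine, 1 was called increased and 1 decreased. Their log2 fold changes had a median of -0.13, which became 0.089 with scaling by library totals only. The trehalase gene Treh fell from 1009, 1776 and 1428 CPM in the controls to 266, 465 and 516 CPM in H1, H5 and H9 (log2 fold change -1.76, SE 0.29, edgeR adjusted p = 0.0017, lower in 3 of 3 libraries). The sucrase-isomaltase gene Sis was not called, at 3495 ± 367 and 2389.9 ± 659 CPM (log2 fold change -0.55, adjusted p = 0.086, edgeR, lower in 3 of 3 libraries). Akp3, an intestinal alkaline phosphatase gene, rose from 5.92, 152 and 49.7 CPM to 1449, 1249 and 980.1 CPM (log2 fold change 4.14, SE 1.19, edgeR adjusted p = 0.042, higher in 3 of 3 libraries). The controls of Akp3 spread widely, its log2 fold change was 5.47 without C3, and its adjusted p (edgeR) was 0.11 without C3-3, 0.095 without H1, 0.076 without H5 and 0.095 without H9, and 0.068 with no filter on low counts, in a range of 3.6e-05 to 0.11 over 12 alternatives. Akp3 is one of several very similar alkaline phosphatase genes, and the treatment of reads that fit more than one of them is not given in the sources used here.

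**Figure D4:**
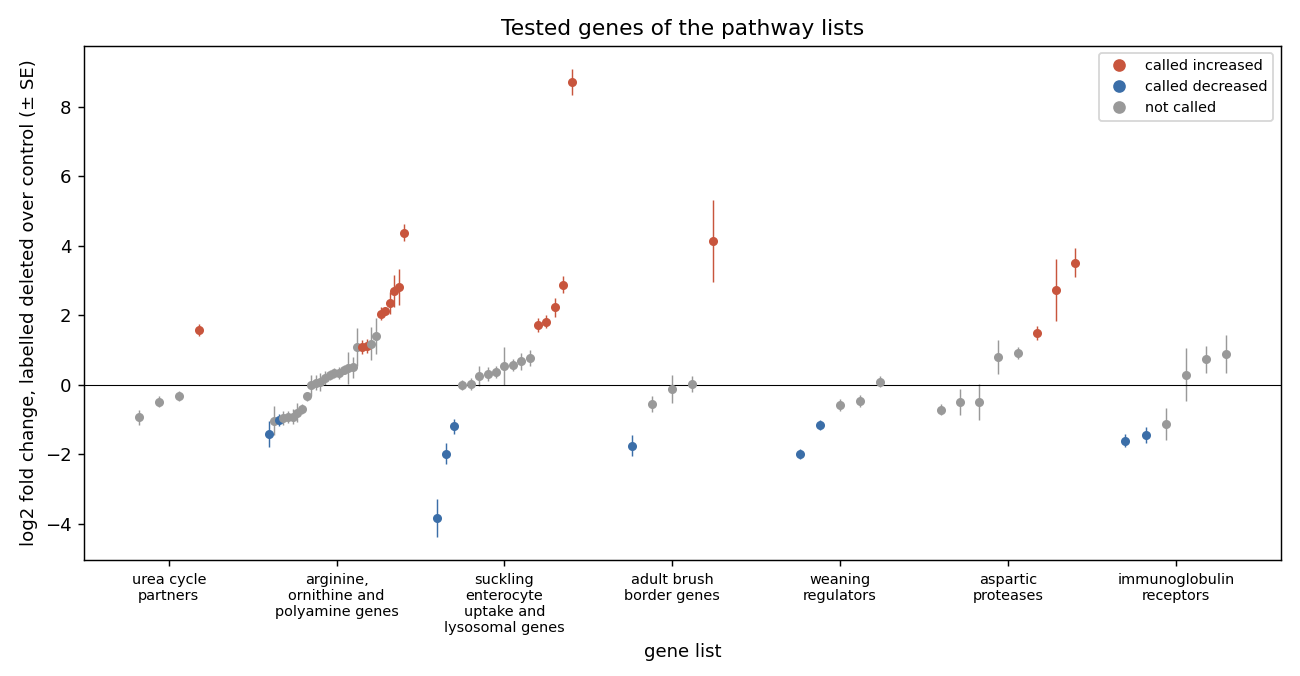
Log2 fold change (labelled Hdac1/2-deleted over control) of each tested gene of the 7 pathway lists, with bars for its standard error and colours for the calls; Car5a and Lrp2, with at most 10 control counts, are left out. Lists hold genes on both sides of 0, and the uptake and lysosomal list spans from -3.84 (Cubn) to 8.72 (Mamdc4).

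Over the 7 lists together, 83 genes were listed, 82 were in the table and 77 were tested. Of these, 20 (26.0%) were called increased and 10 (12.99%) decreased, and the log2 fold changes of the lists together had a median of 0.29. Over all tested genes, 1944 were called increased and 1990 decreased. With scaling by library totals only, the median over all tested genes moved up by 0.19 on the log2 scale, the whole table split into 2463 increased and 1538 decreased genes, and the lists into 23 and 8.

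Markers of other cell types were followed in the same libraries, since an EDTA fraction can hold cells that are not epithelial. In bulk RNA, fewer cells of a type and less RNA per cell cannot be told apart, for enterocytes as for other cells. The 10 enterocyte and epithelial markers summed to 44773, 40675 and 43766 CPM in the controls and to 26056, 25191 and 32536 CPM in H1, H5 and H9, with Apoa1 at 50.6% of the sum. Of these 10, 1 was called increased (Krt18) and 1 decreased (Fabp2). The sum was lower in every library in which Prdm1, Cym, Lct and Cubn were lower, and its part in those results was not tested.

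Of 8 macrophage markers, 4 were called, all of them increased (Csf1r, C1qa, C1qb and Mrc1), and all 8 had counts in every library. Their sum was 13.2, 16.1 and 11.6 CPM in the controls and 26.9, 29.9 and 50.9 CPM in H1, H5 and H9, led by C1qa in C1 and by Csf1r in the other 5 libraries. Macrophages can express Nos2, lysosomal enzymes and Fc receptors, and the part of these cells in those values was not tested. Of 7 T cell markers, 2 were called, both decreased (Cd3g and Cd8a), with sums of 111, 427 and 367 CPM in the controls and 49.9, 136 and 97.7 CPM in H1, H5 and H9, led by Gzma. The groups overlapped for every T cell marker, including the called ones. Prdm1 is also expressed in lymphocytes and plasma cells. Its levels were lowest among controls in C1, where the T cell sum was also lowest. Among the controls, the T cell sum was highest in C3 and Prdm1 in C3-3. In C1 the T cell sum was 111 CPM and Prdm1 6.01 CPM, and in H5 they were 136 and 2.53 CPM. Over the 6 libraries together, Gzma made up 53.7% of the T cell sum. The part of T cells in the result was not tested.

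The 7 B and plasma cell markers summed to 62.7, 9.52 and 6.25 CPM in C1, C3 and C3-3 and to 43.8, 50.4 and 61.9 CPM in H1, H5 and H9, led by Jchain in the controls and by Cd79b in the others, with 1 of 4 tested called increased (Cd79b). The sum of C1 lay above all 3 libraries labelled Hdac1/2-deleted and those of C3 and C3-3 below them, and its part in the level of Prdm1 was not tested. The 7 stromal markers summed to 26.8, 18.4 and 5.17 CPM and to 12.7, 21.8 and 17.7 CPM, led by Acta2 in C1 and C3, by Dcn in C3-3 and by Pdgfrb in H1, H5 and H9, with 1 of 6 tested called increased (Pdgfrb) and 2 decreased (Dcn and Acta2). The 5 endothelial markers summed to 1.39 to 3.06 CPM in the 6 libraries, led by Pecam1. Pecam1 (log2 fold change 0.56) and Cdh5 (-0.30), the 2 that could be tested, overlapped between the groups.

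Cym and Pga5 are gastric genes, so markers of stomach and pancreas were followed too. The 8 gastric markers summed to 0.257, 1.801 and 0.489 CPM in the controls and to 4.04, 11.9 and 9.07 CPM in H1, H5 and H9, led by Gif in C1, by Atp4a in C3 and C3-3 and by Tff2 in H1, H5 and H9. Over the 6 libraries together, Tff2 made up 84.6%. Of the 2 tested, Tff2 was called increased and Atp4a overlapped between the groups, and 6 of the 8 had 0 counts in at least 1 library. Gif, too low to test, had 10, 23 and 8 counts in C1, C3 and C3-3 and 1, 0 and 0 in H1, H5 and H9, and like Cym it was highest in C3. Atp4b, also too low to test, went the other way, with 0 counts in every control and 12, 1 and 9 in H1, H5 and H9. The other untested gastric markers, Gkn1, Gkn2, Tff1 and Muc5ac, overlapped between the groups. Among the controls they had 13, 12, 9 and 11 counts in C3 and 0 in C1 and C3-3. In H1, H5 and H9, Gkn1 had 8, 8 and 3 counts and Gkn2 had 1, 0 and 0. Tff1 had 5, 9 and 0 counts there, and Muc5ac 2, 3 and 0. The 7 pancreatic acinar markers in the table summed to 6.69, 10.6 and 6.47 CPM in the controls and to 26.4, 17.4 and 20.3 CPM in H1, H5 and H9, led by Cela1, with 2 of 4 tested called increased (Cela1 and Ctrb1). The part of gastric and pancreatic cells in the values of Cym, Pga5 and the other genes was not tested.

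**Figure D5:**
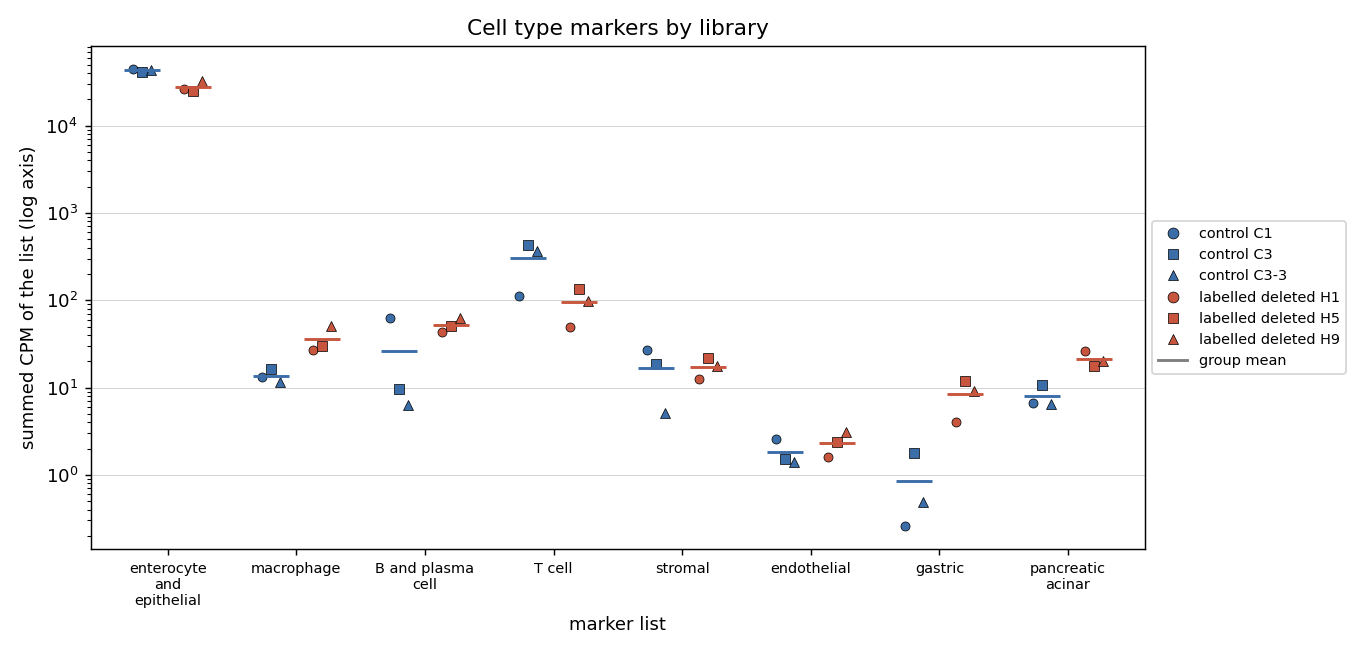
Summed CPM of 8 lists of cell type markers in each of the 6 libraries on a log axis, with bars for group means. The epithelial sum is lower in all 3 libraries labelled Hdac1/2-deleted, and the macrophage, gastric and pancreatic acinar sums are higher there. C1 stands apart from C3 and C3-3 in the B and plasma cell and T cell sums.

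For each of the genes with values given here, the 2 genes with the most similar pattern over the 6 libraries were found among the 8326 genes that averaged 3 or more in log2 CPM, as the smallest root mean square difference of centred log2 CPM. For Cym these were Cyp2b10 (0.74) and Vnn1 (1.36), which were far less close than for the other genes. Cyp2b10 stood at 688, 1205 and 859 CPM in the controls and at 3.42, 5.16 and 6.62 CPM in H1, H5 and H9, and like Cym it was highest in C3. For Ass1 they were Aldh7a1 (0.21) and Fgfr4 (0.28) and for Prdm1 Slc47a1 (0.16) and Rnf167 (0.16). For Otc they were Dnajc8 (0.041) and Exosc9 (0.056), for Fcgrt D2hgdh (0.071) and Slc31a1 (0.076), and for Cps1 Fastkd1 (0.10) and Kpna2 (0.11). For Cym, Ass1, Prdm1 and Otc, whose groups did not overlap, such a match over 6 libraries in 2 groups mostly repeats the difference between the groups. For Cps1 and Fcgrt, whose groups overlapped, it rests on differences between single libraries.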

How the data were processed

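The deposited table holds raw counts of reads on 19616 genes in 6 libraries, which the authors made after alignment with STAR. The submitters' processing notes name STAR 2.4.0f1, bcl2fastq 1.8.4 and the mouse build mm9, while the study's methods name GRCm38; positions here are those of GRCm38. The counting program, its strand setting and the annotation are not given in the sources used here. Normalized columns, which hold rounded values, and the authors' fold changes and p-values were not used. No gene in the table has fewer than 10 counts in all.

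Counts were filtered with filterByExpr (15618 genes kept), scaled with TMM and fitted with the robust quasi-likelihood model of edgeR 4.0.16 (limma 3.58.1, R 4.3.3; prior count 0.125, no covariates). A standard error is the log2 fold change divided by the square root of F. Alternatives were other scalings, DESeq2 1.42.0, other filters, a prior count of 2, no fold limit, and leaving out each library. Samples were grouped by their labels, and no replicate numbers pair them. The steps were tested on simulated data.

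Positions and exon lengths were taken from mouse GENCODE (release 21), where all 8 genes were matched, and promoters from RefSeq (Python 3.11.15, pandas 2.3.3, scipy 1.17.1, matplotlib 3.10.9). The rule for named genes took the 8 genes, Hdac1, Hdac2, every listed pathway gene that was called, uncalled ones that had the highest CPM in their list or act in the same step, the markers with the highest CPM, and the 2 closest patterns per gene. Some genes that this rule takes are not reported here. Amn, Slc25a13, overlapping genes and some markers outside that rule were named after their values were seen. The members and all lists were chosen with earlier results of these data known.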

Additional observations from a re-analysis of the deposited data

How the results depend on the processing

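Over 12 alternatives each (11 for Cym), the log2 fold changes of the 8 genes moved in all 95 refits by less than 1 SD of the difference between single replicates, the root of the summed variances of both groups in log2 CPM. Against the larger SD of a single group, 1 of the 95 lay above it, Otc with library totals only (0.194 against 0.180). Of the 77 pathway genes, 58 had the same call in every alternative that could test them, 7 lost a call under at least 1 alternative, 12 gained one, and no called gene changed direction. Without a fold-change limit, 3198 genes were increased and 3168 decreased, and among pathway genes 24 and 19, since more genes then pass by construction. With 1 library left out, there were 1841 to 2109 increased and 1790 to 2012 decreased genes, and 17 to 21 increased and 10 to 12 decreased pathway genes. Cym could not be tested with at least 10 counts in every library, nor could the pathway genes Car5a, Lrp2, Pga5, Ren1, Azin2, Fcgr2b and Fcgr4. No paired analysis was possible because the groups share no replicate numbers. Groups of 3 libraries limit every comparison, H5 has the lowest depth, and Cym and Pga5 rest on few counts in at least 1 group.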
